A study of Homo sapiens with 16 samples.

Results

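Imprinted genes are expressed from the copy inherited from one parent only, and they were examined here in colon fibroblasts of the human line Ccd18-Co after inflammatory cytokines and then a chromatin inhibitor. A set of 10 well-known imprinted genes was looked up by symbol in a table of estimated RNA-seq counts with 40663 symbols. The set comprised H19, MEG3, PEG3, PEG10, MEST, PLAGL1, CDKN1C, NDN, SNRPN and GRB10. Of these, 9 had a row, and the mean over all libraries was at least 50 normalized counts for 8. NDN was not analysed here, and H19 was at the limit of detection. Normalized counts are estimated counts divided by DESeq2's size factor of the library, so they correct for sequencing depth but not for gene length.

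The libraries fell into 4 groups of 4. Cells of 3 groups received 3 pulses of a mix of OSM, TNF, IL-17A (each 10 ng/ml) and IL-1B (0.1 ng/ml), every pulse lasting 72 h and followed by 96 h of recovery. After a rest of 1 week they were given DMSO (here the vehicle group), 250 nM belinostat or 10 µM GSK-J4 for 5 days, and RNA was taken 2 weeks after that treatment had ended. These doses are those of the sample labels, and parts of the study's text give other doses of belinostat, GSK-J4 and IL-1B. Belinostat inhibits histone deacetylases, and GSK-J4 inhibits the demethylases that remove methyl groups from lysine 27 of histone H3. The unstimulated group received no cytokines and DMSO. No group without cytokines received an inhibitor, so an inhibitor was always measured on top of the pulses, and all values come from a single cell line that was used up to passage 20. The labels do not say whether the 4 libraries of a group were separate cultures. A figure legend of the study gives 3 biological replicates per group for the RNA-seq, where all 4 libraries were used here. The p-values therefore measure the spread between these libraries, which may be technical.

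In an imprinted domain, DNA methylation laid down in the egg or the sperm marks a control region on a single parental copy, and cells keep that mark through division. Histone modifications differ between both copies as well, with acetylation on the active copy and repressive methylation, in some domains on lysine 27 of histone H3, on the silent one. Many imprinted genes regulate growth before birth, and paternally expressed members often promote it while maternally expressed members often restrain it. Counts per symbol add up both parental copies, so the values below are total expression and do not show from which copy an RNA came.

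The start sites of these genes differ in their content of CG dinucleotides, the base step that carries DNA methylation. The RefSeq promoter table (GRCh38.p14) held 24 windows, each of 300 bases from 250 before to 50 after an annotated start, for 7 of the 10 genes, and PEG3, PEG10 and CDKN1C were not among them. Printed here is the window with the most CG dinucleotides of H19, the lowest gene of the set, of MEST, the one that varied most between libraries, and of SNRPN, the highest per kb of exon. All are written 5′ to 3′ on the strand of the gene, with each CG in capitals.
H19, chr11:2001217-2001516, minus strand: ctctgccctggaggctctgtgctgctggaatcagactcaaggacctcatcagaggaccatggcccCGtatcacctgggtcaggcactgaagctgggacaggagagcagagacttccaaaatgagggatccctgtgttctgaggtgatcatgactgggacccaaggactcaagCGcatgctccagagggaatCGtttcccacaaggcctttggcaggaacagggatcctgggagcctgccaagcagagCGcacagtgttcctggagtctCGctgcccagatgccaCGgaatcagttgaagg
MEST, chr7:130491835-130492134, plus strand: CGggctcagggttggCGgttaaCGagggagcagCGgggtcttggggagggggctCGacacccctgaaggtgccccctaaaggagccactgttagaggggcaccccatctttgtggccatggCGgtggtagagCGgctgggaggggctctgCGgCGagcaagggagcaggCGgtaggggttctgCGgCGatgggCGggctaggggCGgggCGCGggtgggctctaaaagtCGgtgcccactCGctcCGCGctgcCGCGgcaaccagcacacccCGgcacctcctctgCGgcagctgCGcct
SNRPN, chr15:24954737-24955036, plus strand: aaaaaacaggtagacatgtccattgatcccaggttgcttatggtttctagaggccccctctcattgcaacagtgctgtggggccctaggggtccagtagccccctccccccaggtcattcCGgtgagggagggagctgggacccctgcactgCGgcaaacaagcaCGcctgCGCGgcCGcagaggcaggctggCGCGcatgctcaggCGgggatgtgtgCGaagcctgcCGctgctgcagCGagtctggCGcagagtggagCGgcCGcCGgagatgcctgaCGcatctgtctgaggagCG
The H19 window held 6 CG dinucleotides, fewer than the median of 14 over all 35116 windows of the table. The printed SNRPN window held 18 and the printed MEST window 25. H19 had no other window, while the other SNRPN windows held 7, 2 and 11 and the other MEST windows 13, 22, 16 and 22. Part of the difference between the printed windows thus comes from picking the richest. Each printed window lies inside its gene as GENCODE annotates it, downstream of the outermost start. For H19 that outermost start, at 2004552, is the one used for distances below. The printed MEST window also held 2 matches to the GC box GGGCGG on either strand, a motif that 45% of all windows held at least once. The printed H19 and SNRPN windows held 0 matches. These letters describe the reference sequence. No DNA methylation was measured.

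Depth was 14.4 to 19.5 M estimated counts per library, and the belinostat group was the shallowest (16.41 ± 1.58 M, SD, n = 4). The labelled cell type was checked against 9 fibroblast markers, all of which were present, with summed levels of 431600 to 574800 normalized counts per library. Among 14 markers of other cell types, epithelial markers summed to at most 17.65 normalized counts in any library. Neural and glial markers summed to at most 3.048. Endothelial markers summed to 19.56 to 41.72 and immune markers to 148.9 to 478.3, with 2 of 4 immune markers at 0 in each group. CD68 made up most of the immune sum, with group means of 256.9 to 301.1, while those of PTPRC were at most 2.578. VWF made up most of the endothelial sum, with group means of 19.7 to 31.78. The fibroblast sum was 538900 to 574800 in GSK-J4 libraries, above the 502000 to 536300 of vehicle libraries, with COL1A2 and COL3A1 called higher, and it was 431600 to 515300 in belinostat libraries, with COL1A1 and PDGFRA called lower. These are DESeq2 calls, and of them edgeR kept PDGFRA alone. The part of these marker levels in the values below was not tested. On the second principal component, belinostat replicate 17 lay at −13 while the remaining belinostat libraries lay between −1.42 and 0.784, and some values without it are given below.

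**Figure D1:**
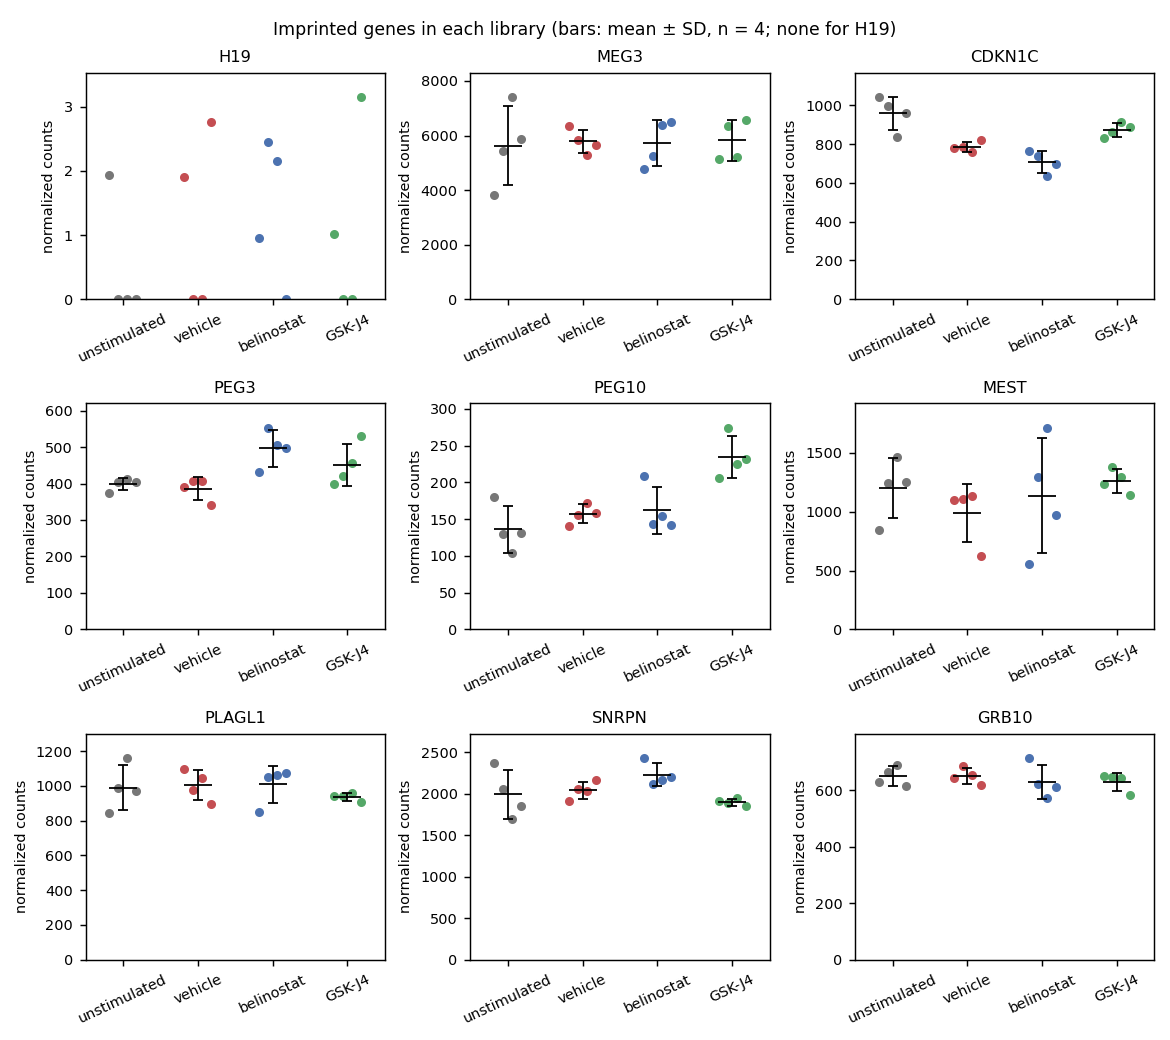
Normalized counts of the 9 imprinted genes with a row, 1 point per library and 1 panel per gene, in the unstimulated, vehicle, belinostat and GSK-J4 groups. Horizontal bars with whiskers are the mean ± SD of 4 libraries and are left out for H19, whose libraries held 0 to 3 estimated counts each. CDKN1C was lower in every vehicle than in every unstimulated library, PEG3 was higher in every belinostat than in every vehicle library, and PEG10 was higher in every GSK-J4 than in every vehicle library.

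The set spanned a wide range of levels. Per kb of annotated exon and averaged over the 16 libraries, SNRPN had the highest level (599 normalized counts per kb), followed by CDKN1C (336), MEG3 (247), MEST (241), PLAGL1 (154), GRB10 (65.3), PEG3 (44.3), PEG10 (25.8) and H19 (0.295). The ranges over libraries of SNRPN (496 to 714) and CDKN1C (256 to 420) did not overlap. Those of MEG3 (165 to 318) and MEST (117 to 359) overlapped over most of their width, and the range of PLAGL1 (132 to 181) lay wholly within that of MEST. These levels use all annotated exons of a gene, so a gene with many unused exons is understated.

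In each comparison, 1 to 3 of the 8 imprinted genes tested were called. With DESeq2 on all 16 libraries, at an adjusted p under 0.05 over all genes tested, the cytokine pulses (vehicle against unstimulated) changed 1 of the 8 genes tested, CDKN1C, which fell, where 1.74% of all genes tested were called. Belinostat against vehicle changed 1 of 8, PEG3, which rose, where 6.26% of all genes were called. GSK-J4 against vehicle also changed 1 of 8, PEG10, which rose, where 1.92% of all genes were called. In the direct comparison of both inhibitors 3 of 8 were called (12.2% of all genes), with SNRPN higher and PEG10 and CDKN1C lower after belinostat than after GSK-J4. Against unstimulated cells, belinostat-treated cells differed in 2 of 8 (PEG3 higher, CDKN1C lower, against 10.3% of all genes) and GSK-J4-treated cells in 1 of 8 (PEG10 higher, against 5.55%). With 8 genes, 1 call amounts to more than the background share in every comparison, so these counts describe single genes and not the set.

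The median log2 fold change of the 8 genes was 0.0114 against −0.00478 for the cytokine pulses, 0.0279 against 0.00288 for belinostat, and 0.0813 against −0.00249 for GSK-J4, the second value being that of all genes tested. Since the genes moved both ways, the median size of the change regardless of sign is given too. It was 0.0414 against 0.0889 for the pulses, 0.0889 against 0.0927 for belinostat and 0.129 against 0.074 for GSK-J4. At an unadjusted p under 0.05 there were 1, 2 and 3 of the 8 genes in these comparisons. The share of all genes at that unadjusted threshold was not counted, here or for the lists below, so these numbers have no background beside them. Comparisons with the vehicle group share its 4 libraries, and those with the unstimulated group share theirs, so their results are not independent of each other. In bulk RNA, a change in the number of cells that express a gene and a change in RNA per cell cannot be told apart.

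**Figure D2:**
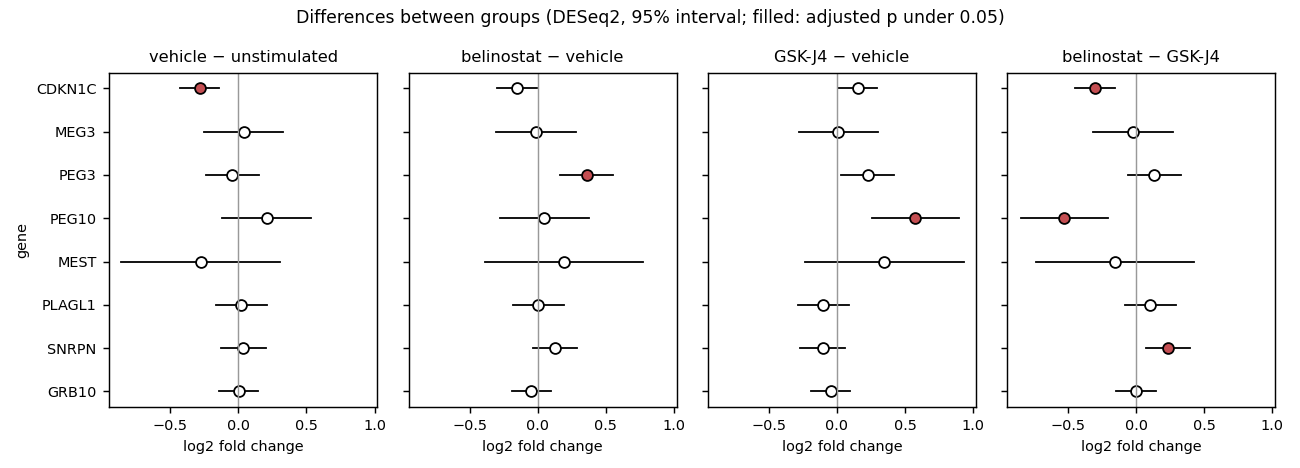
Log2 fold changes from DESeq2 of the 8 imprinted genes with a mean of at least 50 normalized counts, 1 panel per comparison, with lines for the 95% interval and filled points for an adjusted p under 0.05. Filled points are CDKN1C (−0.28) for vehicle minus unstimulated, PEG3 (0.36) for belinostat minus vehicle, PEG10 (0.58) for GSK-J4 minus vehicle, and CDKN1C (−0.30), PEG10 (−0.53) and SNRPN (0.23) for belinostat minus GSK-J4.

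CDKN1C (chr11:2883213-2885775, minus strand, GRCh38, as for the positions below), also known as p57, is a cyclin-dependent kinase inhibitor expressed from the maternal copy, and it was called in 3 of the 6 comparisons. Its unstimulated libraries held 1041, 996, 837 and 959.7 normalized counts. The vehicle libraries held 780.5, 787, 759 and 821, all below the lowest unstimulated library. The belinostat libraries held 767, 738, 634 and 699, and the GSK-J4 libraries 832, 861, 913 and 891. The order of the group means was therefore unstimulated (958.6 ± 87.6, SD, n = 4), GSK-J4 (874.3 ± 35.4), vehicle (786.7 ± 25.5) and belinostat (709.3 ± 57.2). Belinostat and GSK-J4 libraries did not overlap, whereas belinostat overlapped with vehicle and GSK-J4 with unstimulated.

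After the cytokine pulses CDKN1C fell by 0.28 on the log2 scale (adjusted p = 0.0104 by DESeq2, SE 0.0734), which is a change of −17.9%. Leaving out unstimulated replicate 1, 2 or 4, or else replicate 13 or 15 of the vehicle group, ended the call, with log2 fold changes of −0.24, −0.27, −0.28, −0.28 and −0.27 and DESeq2 adjusted p up to 0.0854. Neither inhibitor moved CDKN1C past the threshold against vehicle: the log2 fold change was −0.15 for belinostat (adjusted p = 0.305 by DESeq2, SE 0.0752, 95% interval −0.30 to −0.00176) and 0.15 for GSK-J4 (adjusted p = 0.452 by DESeq2, SE 0.074, 95% interval 0.01 to 0.30). The difference between both inhibitors was called, at −0.30 (adjusted p = 0.00114 by DESeq2, SE 0.0751). Belinostat-treated cells also lay below unstimulated cells, by a log2 fold change of −0.43 (adjusted p = 4.98e-07 by DESeq2, SE 0.0745) or −25.9%. These last 2 calls were kept in all 13 alternatives. For GSK-J4-treated against unstimulated cells the value was −0.13 (adjusted p = 0.407 by DESeq2, SE 0.0733, 95% interval −0.28 to 0.01).

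Because CDKN1C restrains the cell cycle, 15 genes of DNA replication and mitosis were read beside it. In the cytokine comparison 3 of 15 tested rose (TOP2A, BIRC5 and RRM2), none with edgeR, where DESeq2 called 1.74% of all genes. At an unadjusted p under 0.05 there were 6. After GSK-J4 3 of 11 tested rose against vehicle (MKI67, TOP2A and TYMS, of which edgeR called 1, where DESeq2 called 1.92% of all genes), and after belinostat DESeq2 and edgeR called 0 of 14, with 2 at an unadjusted p under 0.05 (6.26% of all genes called by DESeq2). The summed level of the list was 1939 to 2257 normalized counts in unstimulated, 2200 to 2573 in vehicle, 2202 to 2276 in belinostat and 2533 to 2744 in GSK-J4 libraries. GSK-J4 libraries thus had the highest sums, with a slight overlap with vehicle. Between both inhibitors, 4 of 14 tested genes of the list were lower after belinostat than after GSK-J4 (edgeR also called 4, 12.2% of all genes called by DESeq2). Against unstimulated cells, 4 of 14 were higher after belinostat and 7 of 15 after GSK-J4. There edgeR called 4 and 7, where DESeq2 called 10.3% and 5.55% of all genes. The part of proliferation in the CDKN1C and PEG10 values was not tested.

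Among the maternally expressed long noncoding RNAs, H19 was barely detected and MEG3 was abundant. H19, a noncoding RNA next to IGF2 (chr11:1995166-2004552, minus strand), had 0 estimated counts in 8 of the 16 libraries and 1 to 3 in the others, with positive libraries in all 4 groups. All groups were thus at or under a floor of 3 counts, and no fold is given. MEG3, the noncoding RNA of the DLK1 domain (chr14:100779410-100861031, plus strand), reached 3837 to 7397 normalized counts per library. Its group means differed by less than the spread within any group: 5633 ± 1460 in unstimulated, 5783 ± 437 in vehicle, 5726 ± 838 in belinostat and 5824 ± 742 in GSK-J4 cells. The 95% intervals of its log2 fold change ran from −0.26 to 0.33 for the pulses, −0.31 to 0.28 for belinostat and −0.28 to 0.30 for GSK-J4, so a change within these bounds could not be told from none. For belinostat, MEG3 stood at −0.01 with all libraries and at 0.06 without belinostat replicate 17.

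PEG3, a paternally expressed zinc finger gene (chr19:56810077-56840728, minus strand), was the gene called after belinostat. It stood at 373, 404, 411 and 404 normalized counts in unstimulated libraries and at 390.2, 406, 406 and 342 in vehicle libraries, so the pulses left it within the spread. Belinostat libraries held 431, 553, 505 and 496, each above every vehicle and every unstimulated library, with replicate 17 the lowest. GSK-J4 libraries held 399, 421, 455 and 531 and overlapped with all other groups.

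Belinostat raised PEG3 by 0.36 on the log2 scale against vehicle (adjusted p = 0.00789 by DESeq2, SE 0.0992), or 28.3%, from 386.2 ± 30.3 to 496.2 ± 50.4 (SD, n = 4). The call was lost without vehicle replicate 16, the lowest library of all (0.30), or without belinostat replicate 18, the highest (0.30), at DESeq2 adjusted p of up to 0.0653. After GSK-J4 the log2 fold change was 0.23 (adjusted p = 0.353 by DESeq2, SE 0.0995, 95% interval 0.03 to 0.42). The difference between both inhibitors was 0.13 (adjusted p = 0.47 by DESeq2, SE 0.0988) with a 95% interval of −0.06 to 0.33, so PEG3 was not shown to respond to belinostat alone. Against unstimulated cells belinostat-treated cells were higher by 0.31 (adjusted p = 0.0201 by DESeq2, SE 0.0991). That call was lost in 5 of 13 alternatives, without unstimulated replicate 1 or 2 or belinostat replicate 18, 19 or 20, where the log2 fold change went down to 0.26 and the DESeq2 adjusted p up to 0.119. ZIM2, which shares exons with PEG3, had 0 to 6.098 estimated counts per library.

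PEG10 is a paternally expressed gene derived from a retrotransposon (chr7:94656325-94669695, plus strand), and like CDKN1C it was called in 3 of the 6 comparisons. Unstimulated libraries held 180.5, 129, 104 and 131 normalized counts, and vehicle libraries 141, 156, 172 and 159. Belinostat libraries held 209, 143, 154 and 142. GSK-J4 libraries held 205, 274, 226 and 232, above every vehicle and every unstimulated library, while belinostat replicate 17 reached into their range.

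GSK-J4 raised PEG10 by 0.58 on the log2 scale against vehicle (adjusted p = 0.0257 by DESeq2, SE 0.162), or 49.2%, from 157 ± 12.9 to 234.3 ± 29 (SD, n = 4). This call depended on the processing: edgeR's quasi-likelihood test gave an adjusted p of 0.101, so that edgeR called 0 of the 8 imprinted genes after GSK-J4 (0.631% of all genes tested with it), and the call was kept in 5 of 13 alternatives, with log2 fold changes of 0.49 to 0.64 in all of them. Leaving out any vehicle replicate (0.53, 0.57, 0.62 and 0.58 without replicate 13, 14, 15 and 16), or GSK-J4 replicate 22 (0.49), 23 (0.60) or 24 (0.58), ended it. After belinostat the log2 fold change was 0.05 (adjusted p = 0.945 by DESeq2, SE 0.166, 95% interval −0.27 to 0.38), and −0.10 without belinostat replicate 17. Belinostat- and GSK-J4-treated cells differed in PEG10 by −0.53 (adjusted p = 0.0143 by DESeq2, SE 0.163), a call lost without belinostat replicate 18, 19 or 20 or GSK-J4 replicate 22 (DESeq2 adjusted p up to 0.101). The largest difference was between GSK-J4-treated and unstimulated cells, with a log2 fold change of 0.79 (adjusted p = 0.000117 by DESeq2, SE 0.164) or 72.3%, which was called in all 13 alternatives.

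MEST, which encodes a protein of the alpha/beta hydrolase fold and is paternally expressed (chr7:130486171-130506465, plus strand), varied most between libraries of one group. It stood at 847, 1239, 1466 and 1249.7 normalized counts in unstimulated and at 1099, 1105, 1135.5 and 624 in vehicle libraries. Belinostat libraries held 558.5, 1292, 1713 and 974, and GSK-J4 libraries 1234, 1379, 1292 and 1142.5. The GSK-J4 group was the most even, and its lowest library lay just above the highest vehicle library. DESeq2 gave log2 fold changes of −0.28 for the pulses, 0.19 for belinostat and 0.35 for GSK-J4 (adjusted p = 0.931, 0.858 and 0.799), each with a wide SE of 0.297. These values moved with single libraries: without vehicle replicate 16 MEST differed by −0.11, 0.03 and 0.18 in these 3 comparisons, and the belinostat value was 0.42 without belinostat replicate 17 and −0.08 without belinostat replicate 19. Against unstimulated cells, MEST after belinostat was −0.08 with all libraries and 0.14 without belinostat replicate 17. The antisense gene MESTIT1 had at most 4.423 estimated counts in any library.

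SNRPN encodes a core protein of the spliceosome and is paternally expressed from the Prader-Willi region (chr15:24823637-24978723, plus strand). Unstimulated libraries held 2374, 2051, 1692 and 1849 normalized counts and vehicle libraries 1912, 2052.5, 2032.5 and 2169. Belinostat libraries held 2433, 2115, 2168.5 and 2203, all above the GSK-J4 libraries at 1911, 1885, 1942.5 and 1850. The 4 unstimulated libraries covered most of the range of both. Against vehicle neither inhibitor passed the test, with a log2 fold change of 0.13 for belinostat (adjusted p = 0.52 by DESeq2, SE 0.0839) and −0.11 for GSK-J4 (adjusted p = 0.775 by DESeq2, SE 0.0841). The difference between both inhibitors was 0.23 (adjusted p = 0.0468 by DESeq2, SE 0.0842), close to the threshold. It was called in 3 of 13 alternatives, with edgeR's adjusted p at 0.0611, and was lost without any of the 8 libraries compared.

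Neither PLAGL1 (chr6:143940300-144064599, minus strand), a paternally expressed zinc finger transcription factor, nor GRB10 (chr7:50590063-50793462, minus strand), an adaptor that binds insulin and IGF receptors and is imprinted in a tissue-dependent way, was called in any of the 6 comparisons. PLAGL1 group means were 990.3 ± 131, 1005 ± 88, 1009 ± 106 and 938.1 ± 22 normalized counts (unstimulated, vehicle, belinostat, GSK-J4, SD, n = 4). GRB10 group means were 649.2 ± 34.2, 650.5 ± 27.8, 629 ± 60.8 and 629.4 ± 31.9 in the same order. GRB10 was among the most tightly bounded genes: its 95% interval was −0.14 to 0.15 for the pulses, −0.19 to 0.10 for belinostat and −0.19 to 0.10 for GSK-J4. The intervals of PLAGL1 were −0.17 to 0.21, −0.18 to 0.20 and −0.29 to 0.09.

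**Figure D3:**
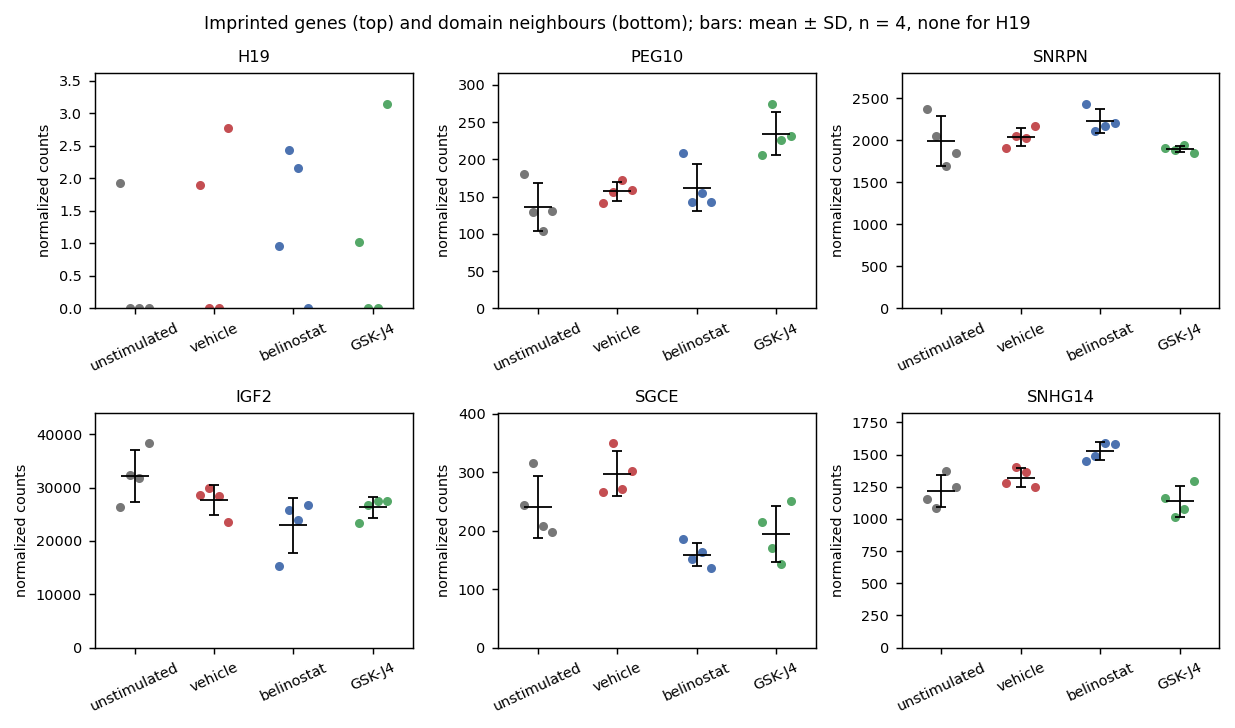
Normalized counts per library of H19, PEG10 and SNRPN (top) and of IGF2, SGCE and SNHG14, a neighbour of each in its imprinted domain (bottom), with mean ± SD of 4 libraries except for H19. SGCE was lower in all belinostat and all GSK-J4 libraries than in any vehicle library, and IGF2 stood at 15353 normalized counts or more in every library while H19 was near 0.

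Neighbours in the imprinted domains were read beside the genes of the set, and SGCE was the one called after both inhibitors. SGCE, which encodes epsilon-sarcoglycan and is also paternally expressed, starts 0.247 kb from PEG10 on the opposite strand. Its vehicle libraries held 267, 349.7, 272 and 302 normalized counts, against 185, 151, 163 and 137 after belinostat and 215, 171, 142 and 252 after GSK-J4, so both inhibitor groups lay wholly below vehicle. The unstimulated libraries (243, 315, 208 and 197) overlapped with the vehicle and the GSK-J4 group. Belinostat lowered SGCE by a log2 fold change of −0.90 (adjusted p = 3.24e-05 by DESeq2, SE 0.179), or −46.4%, a call kept in all 13 alternatives. GSK-J4 lowered it by −0.61 (adjusted p = 0.0338 by DESeq2, SE 0.176), a call kept in 6 of 13 alternatives and not by edgeR (adjusted p = 0.121). Leaving out any of vehicle replicates 14, 15 and 16, or any of GSK-J4 replicates 21, 22 and 23, ended it too.
Against vehicle, the pair thus moved in opposite directions after GSK-J4, PEG10 up and SGCE down, with neither call kept by edgeR. After belinostat SGCE fell against vehicle while PEG10 stayed within the spread. Against unstimulated cells, the log2 fold change of SGCE was −0.60 after belinostat (adjusted p = 0.0138 by DESeq2). It was −0.31 after GSK-J4 (adjusted p = 0.441 by DESeq2). SGCE was called in 10 of 13 alternatives of the former comparison and in 0 of the latter. The annotated gene bodies overlap at their starts, and whether the counting used strand was not given in the sources used here. TFPI2, a protease inhibitor in the same chromosome 7 domain that was picked after its values were seen, stood at 3003 ± 136 after GSK-J4 and 1865 ± 215 in vehicle cells without overlap, but was not called (log2 fold change 0.69, DESeq2 adjusted p = 0.185).

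On chromosome 11, IGF2, a growth factor expressed from the paternal copy, had the highest counts of the imprinted genes named here. Its annotated start lies 154 kb from that of H19, and its group means were 32220 ± 4850, 27660 ± 2810, 22900 ± 5170 and 26260 ± 1970 normalized counts (unstimulated, vehicle, belinostat, GSK-J4). IGF2 was lower in belinostat-treated than in unstimulated cells, by a log2 fold change of −0.49 (adjusted p = 0.00732 by DESeq2, SE 0.14), a call lost without unstimulated replicate 4. Belinostat against vehicle gave −0.27 (adjusted p = 0.319 by DESeq2, SE 0.14) for IGF2, and belinostat replicate 17 was the lowest library at 15353 (−0.12 without it, and −0.34 against unstimulated). INS-IGF2, a read-through transcript that overlaps IGF2, had at most 3.058 estimated counts. KCNQ1OT1, the paternally expressed antisense RNA of the CDKN1C domain, was not called in any comparison, with group means of 276 ± 51.9, 302.4 ± 50.8, 294.8 ± 42.6 and 279.4 ± 86.1.

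DLK1, the paternally expressed Notch-like protein next to MEG3, had group means of only 1.646 to 3.637 normalized counts where those of MEG3 were 5633 to 5824. In the SNRPN domain, SNURF, which shares transcripts with SNRPN, had group means of 38.93 to 53.03 and was not called, and counts of these 2 genes are uncertain because quantification has to split reads between them. SNHG14, the long host RNA downstream of SNRPN, falls outside the rule for named genes and was picked after its values were seen. It had 1525 ± 68.3 normalized counts after belinostat, 1321 ± 72.1 in vehicle, 1214 ± 123 in unstimulated and 1136 ± 122 after GSK-J4. Its difference between both inhibitors was 0.42 (adjusted p = 8.74e-06 by DESeq2, SE 0.0823, called in all 13 alternatives), in the same direction as that of SNRPN. The annotated SNHG14 start lies within SNRPN, so some reads could come from either.

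Wider lists, of domain neighbours and of imprinted genes elsewhere, are given as counts beside the share of all genes called. That share was 1.74% for the pulses, 6.26% for belinostat, 1.92% for GSK-J4 and 12.2% between both inhibitors. Of 39 further genes of these domains, 34 had a row. DESeq2 and edgeR called 0 after the cytokine pulses (20 tested with DESeq2, 1 with an unadjusted p under 0.05). After belinostat and after GSK-J4, DESeq2 called 1 of 19 tested each time, SGCE, and edgeR called SGCE after belinostat and 0 after GSK-J4. At an unadjusted p under 0.05 with DESeq2 there were 4 of 19 after belinostat and 3 of 19 after GSK-J4. Between both inhibitors 2 of 19 were called, SNHG14 (higher after belinostat) and TSSC4 (lower), the latter also named after its values were seen. Median log2 fold changes of the domain genes were −0.01, −0.08 and −0.04 for the pulses, belinostat and GSK-J4. Of 21 imprinted genes elsewhere in the genome, 19 had a row, and 0 were called by DESeq2 or edgeR in these 3 comparisons, with 2 of 15, 1 of 13 and 0 of 13 at an unadjusted p under 0.05. Their medians were 0.01, 0.08 and −0.03. Against unstimulated cells, belinostat-treated cells had 1 of 19 domain neighbours tested called higher and 3 lower. For these edgeR called 4, where DESeq2 called 10.3% of all genes. After GSK-J4, 0 of 22 were called, also 0 with edgeR (5.55% of all genes). Of the imprinted genes elsewhere, DESeq2 called 2 of 13 after belinostat and 1 of 15 after GSK-J4 against unstimulated cells. There edgeR called 2 each time. The lists are small, and whether they differ from all genes was not tested.

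A list of 20 regulators of imprints and DNA methylation, such as DNMT1, TRIM28, CTCF, the TET genes and the EZH2 complex, was also examined. Of the 18 tested, DESeq2 and edgeR called 0 in the pulse, belinostat and GSK-J4 comparisons. There DESeq2 called 1.74%, 6.26% and 1.92% of all genes. In each of these comparisons 1 regulator had an unadjusted p under 0.05. Between both inhibitors 1 regulator of 18 was called (12.2% of all genes), the chromatin remodeller ATRX, higher after belinostat than after GSK-J4 by 0.16 (adjusted p = 0.0164 by DESeq2, SE 0.0509). Among imprinted genes elsewhere, the zinc finger gene ZNF331 was higher (0.26, SE 0.0837, DESeq2 adjusted p = 0.0233) and BLCAP lower (−0.17, SE 0.0631, DESeq2 adjusted p = 0.0495) in that comparison. ATRX, ZNF331 and BLCAP were named after their values were seen.

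Counting genes whose libraries did not overlap gave a similar picture. After the pulses 1 of the 8 imprinted genes had groups apart (6.93% of all genes tested), after belinostat 1 (11.4%) and after GSK-J4 3 (10% of all genes), namely PEG10, MEST and CDKN1C. Between both inhibitors 2 were apart (17% of all genes), SNRPN and CDKN1C. Against unstimulated cells, 2 were apart after belinostat (12.3%), PEG3 and CDKN1C, and 1 after GSK-J4 (11.9%), PEG10. MEST and CDKN1C after GSK-J4 were thus apart from vehicle without passing the test.

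**Figure D4:**
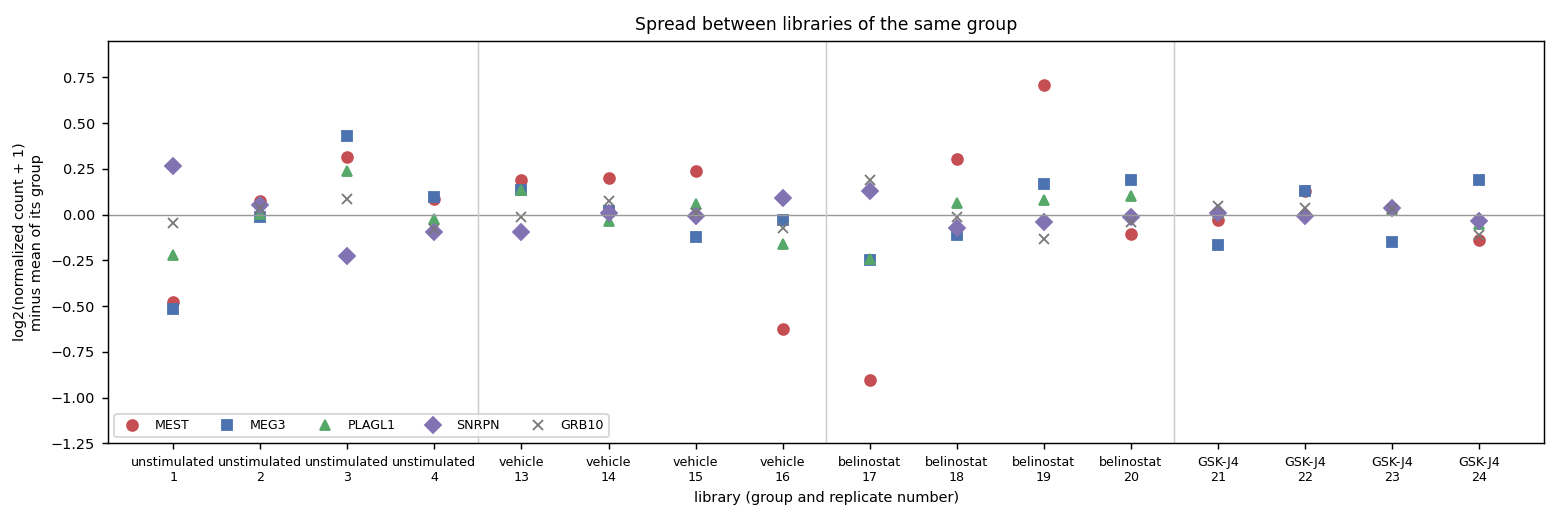
Deviation of each library from the mean of its group, as log2(normalized count + 1), for MEST, MEG3, PLAGL1, SNRPN and GRB10 in the 16 libraries. MEST lay at −0.475 in unstimulated replicate 1, −0.625 in vehicle replicate 16 and −0.906 in belinostat replicate 17, and SNRPN lay above its group mean in the same libraries.

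Variation between libraries of one group was itself large for some of these genes. The within-group coefficient of variation was 27.3% for MEST, 17% for PEG10 and 16.6% for MEG3, at percentiles 97.7, 90.8 and 90.2 of 11741 genes with a mean of at least 50 normalized counts, whose median was 7.64%. CDKN1C (6.62%) and GRB10 (6.43%) lay below that median. In the fit a log2 fold change had an SE of 0.297 for MEST and of 0.0731 to 0.0746 for GRB10.

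Some of these deviations followed each other across genes. On deviations from group means of log2(normalized count + 1) in the 16 libraries, Pearson's r was 0.813 for MEST with PLAGL1 and 0.721 for MEG3 with PLAGL1, and it was negative for SNRPN with PLAGL1 (−0.856), MEG3 (−0.85) and MEST (−0.677). Unstimulated replicate 1 and belinostat replicate 17 were low in MEST, MEG3 and PLAGL1 and high in SNRPN and PEG10. GRB10 followed the other genes of the set less, with r from −0.374 (PEG3) to 0.152 (PEG10). How far these r values rest on single libraries was not tested. These correlations are descriptions, and all values of a library share its size factor.

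For each imprinted gene that was called in a comparison, the most alike genes were sought by Pearson's r of log2(normalized count + 1) over the 16 libraries among 11741 genes. PEG3 was followed by DYNC1LI2 (0.875), TRIM59 (0.841) and LRCH2 (0.84). PEG10 was followed by UBE2V1 (0.914) and VAC14 (0.891). CDKN1C was followed by the actin-severing gelsolin gene GSN (0.911), POLR2E (0.901) and PNMA1 (0.895), and SNRPN by the thymosin gene TMSB4X (0.908), ATP6V1G1 (0.875) and LTA4H (0.869). These r values are the highest of all genes compared, and they include differences between groups. On deviations from group means, r of the genes named here ran from 0.602 (LRCH2) to 0.964 (TMSB4X). None of these genes belongs to the lists of domain neighbours and imprinted genes above.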

How the data were processed

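Libraries of Ccd18-Co RNA were made by the study with the NEBNext Ultra II RNA kit and sequenced on a NextSeq500. The authors quantified reads with kallisto 0.48.0 at default settings (the submitters' processing notes also name FastQC 0.11.9, MultiQC 1.14 and build hg38), and deposited estimated counts per gene symbol, not scaled to depth. Transcriptome release, strand setting and the step from transcripts to symbols were not given in the sources used here. Columns of unstimulated libraries read none where titles read DMSO and were matched by replicate number.

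Estimated counts were rounded to whole numbers and fitted with DESeq2 1.42.0 (R 4.3.3; Wald test, 16 libraries, group only, median-of-ratios size factors, default filters, Benjamini-Hochberg over all genes tested, 6 contrasts); calls are adjusted p under 0.05. Alternatives were edgeR 4.0.16 (quasi-likelihood), TMM factors, at least 10 counts in at least 4 libraries, only the groups compared, no Cook filter, and each library left out. Scripts were tested on simulated data.

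The imprinted genes and lists were chosen with earlier results of these data known. Beyond the set, genes were named if called in the pulse, belinostat or GSK-J4 comparison with a mean of at least 10, with 5 partners fixed (IGF2, DLK1, KCNQ1OT1, SNURF, SGCE) and 3 most alike genes per called gene, of which 1 is not reported here. Exon lengths and start sites are from GENCODE (GRCh38).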

Additional observations from a re-analysis of the deposited data

Results flagged for a closer look

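In 3 of 32 sets of 4 libraries, 1 library lay far from the other 3 by Dixon's test, which flags about 1 set in 20 without any cause. These were MEST in vehicle replicate 16 (624.2 normalized counts, next lowest 1099), PLAGL1 in belinostat replicate 17 (850.6, next lowest 1050) and GRB10 in GSK-J4 replicate 24 (581.7, next lowest 642.1).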

How the results depend on the processing

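Over 1014 alternatives of 78 results, 965 kept their side of the threshold, 45 lost a call, 4 gained one and 0 reversed a called value. In 67 of the 965, over 29 results, the sign changed without a call in either fit, with log2 fold changes of at most 0.342 in size under the alternative. The number of the 8 imprinted genes called after GSK-J4 against vehicle was 1, and edgeR gave 0. Leaving out 1 library at a time gave 0 to 1 for the cytokine pulses, for belinostat and for GSK-J4 against vehicle, 1 to 2 between both inhibitors (3 with all libraries), 1 to 2 for belinostat against unstimulated and 1 for GSK-J4 against unstimulated cells. The cause was not tested. Calls gained were SNRPN for belinostat against unstimulated without unstimulated replicate 1 (0.26), SNHG14 for belinostat with only the groups compared and for GSK-J4 without GSK-J4 replicate 24, and IGF2 for GSK-J4 against unstimulated with only the groups compared. H19 and DLK1 were near the floor: H19 had too few counts for an adjusted p in any comparison, and DLK1 in most. No paired analysis was possible because the groups share no replicate numbers.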
